A study of Mus musculus with 36 samples.

Results

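RNA-seq libraries labelled 65–79*SE with IFNγ and 65–79*PE with IFNγ were set against each other within replicates 4, 5 and 6. This gave 3 libraries per peptide and 6 of the 36 libraries of the study. The 6 were chosen by the peptide and the replicate number in the sample labels, within the count table of the IFNγ experiment, with earlier results of these data known. All came from RAW264.7 cells, an established mouse macrophage line, and the study asked whether peptides from the third allelic hypervariable region of the HLA-DRβ chain steer macrophages toward M1 or M2 polarization. 65–79*SE carries the shared epitope linked to rheumatoid arthritis, and 65–79*PE carries the protective epitope. By the labels and the study's methods, each peptide was given at 100 µg/ml together with IFNγ at 5 ng/ml for 72 h. Whether the cultures labelled 65–79*SE in these replicates received the cytokine was not tested. Libraries with PBS in place of a peptide, of the same 3 replicate numbers, served as the reference. Their titles carry IFNγ while their treatment field gives PBS alone, so whether these cultures received the cytokine is not settled here. The cells are 1 line, the labels do not tie a library to a culture of its own, and p-values therefore measure the spread between these libraries.

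The libraries labelled 65–79*SE did not carry the transcripts by which an IFNγ response is read, and the libraries labelled 65–79*PE did. Peptide and presence of the response cannot be told apart in this comparison. Each difference is accordingly given as a difference between libraries so labelled, and for many genes the PBS level is set beside it. Where no PBS level is given, a higher value in 65–79*PE does not by itself mean a rise over PBS.

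IFNγ binds a receptor of IFNGR1 and IFNGR2 chains, which signals through the kinases JAK1 and JAK2. The signal reaches gamma activated sites (GAS) in target promoters and induces transcription factors such as IRF1 and CIITA. IRF1 acts through interferon stimulated response elements (ISRE), and CIITA switches on the MHC class II genes. In macrophages the pathway is known for raising antigen presentation, cell-autonomous defence by large GTPases, and nitric oxide synthesis, the features of M1 polarization.

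Promoter letters are shown for the genes that carry this comparison, taken from RefSeq on GRCm38.p6 as the 250 bases before and the 50 after a start. The GAS pattern TTCNNNGAA and the ISRE core GAAANNGAAA were searched on both strands, and capitals mark the matches. The RefSeq starts can differ from the GENCODE gene bounds given with the values. Irf1 encodes the transcription factor that carries the response onward, and its sequence up to the base before the start, chr11:53769764-53770013 on the plus strand, holds a GAS match whose first base lies at -90.
Irf1: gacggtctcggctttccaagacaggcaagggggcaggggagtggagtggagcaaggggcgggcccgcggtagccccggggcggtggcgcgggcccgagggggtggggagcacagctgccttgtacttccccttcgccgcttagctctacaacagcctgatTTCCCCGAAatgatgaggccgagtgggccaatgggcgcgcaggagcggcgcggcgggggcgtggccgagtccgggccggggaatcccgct
Gbp2 encodes a guanylate binding protein, and its upstream sequence, chr3:142620413-142620662 on the plus strand, holds an ISRE core on the reverse strand that begins at -59.
Gbp2: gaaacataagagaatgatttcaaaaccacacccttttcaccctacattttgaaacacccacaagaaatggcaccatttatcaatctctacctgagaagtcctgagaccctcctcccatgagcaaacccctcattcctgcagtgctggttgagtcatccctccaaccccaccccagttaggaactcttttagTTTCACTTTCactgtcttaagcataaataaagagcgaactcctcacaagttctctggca
The immunity-related GTPases with an entry are shown as short windows of the gene strand, since in 4 of them a GAS match is followed after 2 bases by an ISRE core.
Igtp, chr11:58199499-58199543, plus strand: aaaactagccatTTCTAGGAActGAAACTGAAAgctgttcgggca
Irgm2, chr11:58214890-58214934, plus strand: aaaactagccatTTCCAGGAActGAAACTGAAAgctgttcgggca
Tgtp1, chr11:48992302-48992346, minus strand: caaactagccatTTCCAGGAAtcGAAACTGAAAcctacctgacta
Tgtp2, chr11:49064261-49064305, minus strand: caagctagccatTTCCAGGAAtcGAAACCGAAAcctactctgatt
Irgm1, chr11:48871423-48871462, minus strand: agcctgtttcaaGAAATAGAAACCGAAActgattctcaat

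Of all 32851 promoters in the table, 8.3% held the GAS pattern, 3.44% held the ISRE core and 0.454% held both. A match is a description of these letters and says nothing of binding. The windows of Cxcl9 and Tap1 held neither pattern, and Ciita and Nos2 had no entry. Shares of called genes or of gene lists with a motif are not given, because 5 of 7 immunity-related GTPases and 5 of 11 guanylate binding proteins had an entry and only 60.4% of the tested genes had a promoter in the table.

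Total counts were 20666573 to 34018183 in the 65–79*SE libraries, 26739977 to 42531590 in 65–79*PE and 28574613 to 63155889 in PBS. Levels are CPM, counts scaled to a library total of 1000000, and 3 counts, taken as the limit below which a level is not resolved, equal 0.0882 to 0.145 CPM in 65–79*SE and 0.0705 to 0.112 CPM in 65–79*PE, for counting error alone. The log2 difference is the 65–79*SE level minus the 65–79*PE level, given with its standard error, and a negative value is lower in the libraries labelled 65–79*SE. A gene is called, and said to be higher or lower, at a Benjamini-Hochberg adjusted p below 0.05 in edgeR's quasi-likelihood test and a difference of at least 1.5-fold.

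Of 15563 genes tested, 2150 were called, or 13.8%. In the libraries labelled 65–79*SE, 920 genes were higher, or 5.91%, and 1230 were lower, or 7.9%. Differences above 4-fold were unevenly split, with 275 genes lower and 81 higher in 65–79*SE. The median log2 difference over all tested genes was 0.00691, and for 7681 genes the 95% interval lay inside 1.5-fold in either direction. All 3 values of each peptide lay apart from those of the other for 6882 genes, or 44.2% of those tested, so separation alone sets no gene aside. On the first principal component of the 9 libraries, which held 57.5% of the variance, 65–79*PE lay at 54.1 to 61.1, 65–79*SE at -33.8 to -30.3 and PBS at -28.7 to -18.

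**Figure D1:**
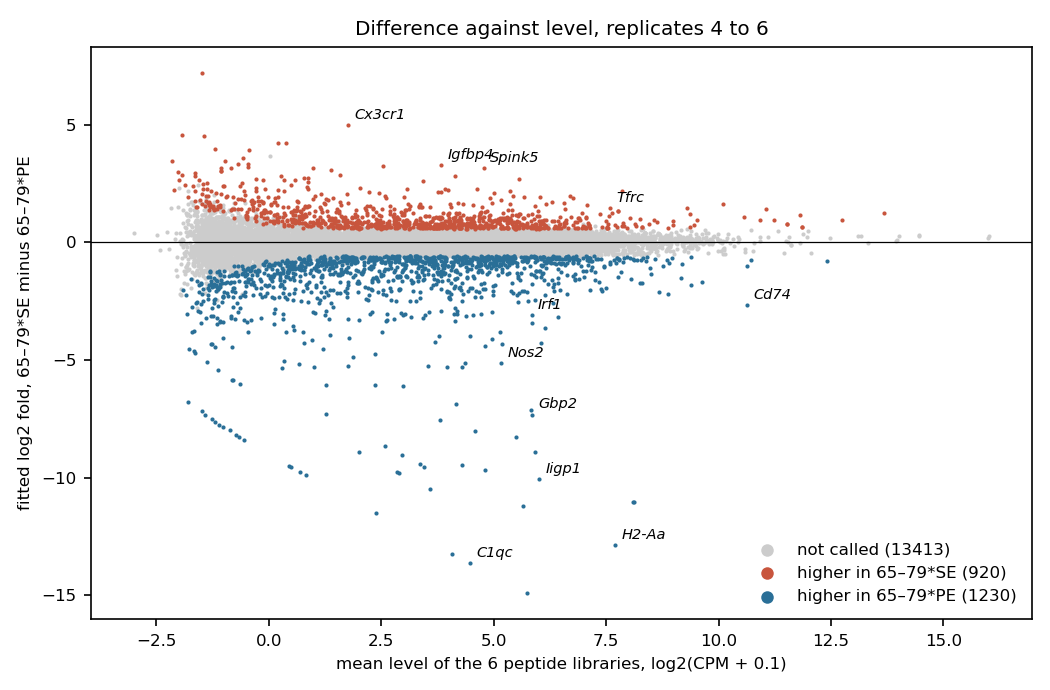
Each point is 1 of 15563 tested genes in replicates 4 to 6, with the mean level of the 6 peptide libraries as log2(CPM + 0.1) on the x axis and the fitted log2 difference, 65–79*SE minus 65–79*PE, on the y axis. Red points are the 920 genes higher in 65–79*SE, blue points the 1230 lower and grey points those not called, and the blue points reach much farther from 0 than the red.

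The IFNγ receptor was transcribed in all 9 libraries. Ifngr1, the ligand binding chain, was at 19.96, 19.6 and 23.3 CPM in 65–79*SE and 21.4, 22.3 and 19.96 CPM in 65–79*PE, beside 18.3, 17.99 and 17.5 CPM in PBS. These values overlapped, and the difference was -0.01 with a 95% interval of -0.21 to 0.18 (edgeR adjusted p = 0.926). Ifngr2, the signalling chain, was at 76.2, 78.7 and 75.4 CPM in 65–79*SE and 47.6, 55.8 and 50.01 CPM in 65–79*PE, with every 65–79*SE value above every 65–79*PE value (log2 difference 0.59 ± 0.07, edgeR adjusted p = 6.82e-05). Its difference sat at the 1.5-fold limit and fell under it without 65–79*PE replicate 4 (0.54), 65–79*PE replicate 6 (0.57) or 65–79*SE replicate 5 (0.57). Of 23 alternatives, 13 gave no call for Ifngr2, among them DESeq2, RLE size factors, no filter on low counts and a fit of the 6 peptide libraries alone. PBS, at 73.6, 69.6 and 71.2 CPM for Ifngr2, was on the 65–79*SE side. Of the kinases, Jak2 was at 43.7, 38.7 and 45.1 CPM in 65–79*SE and 58.8, 59.2 and 58.7 CPM in 65–79*PE, and neither it (log2 difference -0.47 ± 0.10, edgeR adjusted p = 0.00382) nor Jak1 (log2 difference -0.24 ± 0.06, edgeR adjusted p = 0.0125) reached 1.5-fold.

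Downstream of the receptor the groups parted. Irf1 (chromosome 11, 53770014 to 53778374, GRCm38), with the GAS match printed above, was at 12.1, 12.9 and 11.5 CPM in 65–79*SE, 101.1, 104.6 and 102 CPM in 65–79*PE and 12.3, 12.6 and 11.96 CPM in PBS. Within each group these values varied little, and 65–79*PE was 8.46-fold higher (log2 difference -3.08 ± 0.07, edgeR adjusted p = 3.83e-11). Irf8, a myeloid transcription factor induced by IFNγ, was at 45.5, 45.6 and 43.1 CPM in 65–79*SE and 87.5, 89.9 and 92.4 CPM in 65–79*PE, 2.01-fold apart without overlap (log2 difference -1.01 ± 0.06, edgeR adjusted p = 2.75e-07). Batf2, a partner of IRF1 in activated macrophages, was at 2.48, 2.34 and 1.65 CPM against 11.1, 12.5 and 12.1 CPM (log2 difference -2.49 ± 0.18, edgeR adjusted p = 8.89e-07). Stat2, the STAT of the type I interferon complex, was 2.56-fold higher in 65–79*PE (log2 difference -1.36 ± 0.15, edgeR adjusted p = 2.68e-05), and Stat3, which transmits Il-6 and Il-10 signals, 1.64-fold (log2 difference -0.71 ± 0.10, edgeR adjusted p = 0.000213). Irf7, which amplifies type I interferon, was at 38.9, 40.6 and 40.96 CPM in 65–79*SE and 80.1, 61.2 and 61.8 CPM in 65–79*PE (log2 difference -0.75 ± 0.15, edgeR adjusted p = 0.00217), with PBS at 57.9, 63.2 and 88.6 CPM. Irf2, Irf5 and Irf9 were not called, with differences of -0.18, -0.43 and -0.29.

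In all, 8 of 15 receptor and JAK-STAT genes were lower in 65–79*SE and 1, Ifngr2, was higher, with a median log2 difference of -0.628. A list member that is detected in 65–79*PE alone enters the test through that group and had to differ, so list counts describe the members and carry no test. Each list count stands beside the shares over all genes tested, 5.91% higher and 7.9% lower in 65–79*SE. Of 9 feedback inhibitors tested, 3 were lower in 65–79*SE. Socs1, which blocks JAK activity, was at 0.168, 1.27 and 0.899 CPM in 65–79*SE and 2.53, 2.45 and 2.996 CPM in 65–79*PE (log2 difference -1.78 ± 0.42, edgeR adjusted p = 0.00628), near the counting limit in 1 of the 65–79*SE libraries. Socs3, the feedback inhibitor of Il-6 signals, was at 2.27, 1.80 and 1.62 CPM against 3.59, 5.29 and 6.69 CPM (log2 difference -1.47 ± 0.26, edgeR adjusted p = 0.00109). The STAT phosphatase Ptpn2 was 1.57-fold higher in 65–79*PE (-0.65, or -0.55 without 65–79*PE replicate 4 and -0.56 without 65–79*SE replicate 5, under 1.5-fold), and the phosphatases Ptpn1, Ptpn6 and Ptpn11 were not called (-0.23, -0.51 and -0.15). Usp18, which dampens type I interferon signals, leaned the other way without reaching 1.5-fold (log2 difference 0.48 ± 0.11, edgeR adjusted p = 0.00764).

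MHC class II transcripts were among the largest differences. Ciita, the master transactivator of these genes (chromosome 16, 10480059 to 10528418), had 1, 1 and 0 counts in the 65–79*SE libraries, or 0.0420, 0.0487 and 0 CPM, and stood at 18, 22.9 and 24.03 CPM in 65–79*PE. The ratio was 859.6 with a counting interval of 238 to 7102 (edgeR adjusted p = 2.39e-09). PBS, at 0.0317, 0.0695 and 0 CPM, was at the counting limit too. H2-Ab1, a class II beta chain (chromosome 17, 34257689 to 34269419), was at 0.420, 0.243 and 0.150 CPM in 65–79*SE, 614, 496 and 559 CPM in 65–79*PE and 0.348, 0.417 and 0.146 CPM in PBS, a 2126-fold difference (log2 difference -11.05 ± 0.22, edgeR adjusted p = 1.63e-11). Its alpha chain partner H2-Aa had 4, 0 and 0 counts in 65–79*SE against 489, 366 and 395 CPM in 65–79*PE, a ratio of 7951 with a counting interval of 3105 to 29180. H2-Eb1, another beta chain, was at 0.294, 0.243 and 0.240 CPM against 636, 479.7 and 520.4 CPM (log2 difference -11.03 ± 0.26, edgeR adjusted p = 3.88e-11). The gene listed as H2-Ea-ps had no count in 65–79*SE and a mean of 107 CPM in 65–79*PE, at least 2681-fold higher with 3 counts over the group as the limit. In these chains the 65–79*SE libraries and PBS lay at or near the counting limit, far below every 65–79*PE library.

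Cd74, the invariant chain that escorts class II molecules (chromosome 18, 60803848 to 60812652), was expressed in all groups, at 456, 447 and 382 CPM in 65–79*SE, 2827, 2746 and 2636 CPM in 65–79*PE and 548, 557 and 688 CPM in PBS. It was 6.39-fold higher in 65–79*PE (log2 difference -2.68 ± 0.11, edgeR adjusted p = 3.69e-09), and the 65–79*SE values lay below those of PBS. H2-DMa, part of the peptide exchange factor, was at 1.93, 2.73 and 1.62 CPM in 65–79*SE, 21.1, 18.5 and 18.2 CPM in 65–79*PE and 2.15, 2.33 and 2.06 CPM in PBS (log2 difference -3.24 ± 0.16, edgeR adjusted p = 2.72e-08). Its partner chains H2-DMb1 and H2-DMb2 were 260.1-fold and 117-fold higher in 65–79*PE, but these near-identical copies can share reads and are uncertain one by one. The DM regulators H2-Oa and H2-Ob were also lower in 65–79*SE, from 65–79*PE means of 0.724 and 0.510 CPM. Class II promoter factors that do not depend on IFNγ were not called, with Rfx5 at -0.30, Rfxap at -0.04 and Rfxank at -0.26. Nor were the lysosomal processing genes Ifi30 (0.00) and Ctss (0.34). Of 16 class II pathway genes tested of 17 listed, 11 were lower in 65–79*SE, and the median difference was -5.05, or -3.44 with genes at 0 set to their bound. The summed class II levels were 1951 to 2204 CPM in 65–79*SE and 5665 to 6193 CPM in 65–79*PE, and in 65–79*SE they came mostly from Ctss, Cd74 and Ifi30.

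The class I pathway and the immunoproteasome followed the same direction with smaller differences. Tap1, which pumps peptides into the endoplasmic reticulum (chromosome 17, 34187553 to 34197225), was at 16.01, 17.2 and 18.6 CPM in 65–79*SE, 153, 156 and 156 CPM in 65–79*PE and 20.7, 21.2 and 28.6 CPM in PBS. All 65–79*PE values lay 8.96-fold above 65–79*SE on average (log2 difference -3.16 ± 0.12, edgeR adjusted p = 2.20e-09). The class I heavy chain H2-Q6 was at 23.2, 22.7 and 22.4 CPM against 136, 141 and 135 CPM (log2 difference -2.59 ± 0.09, edgeR adjusted p = 1.52e-09), although reads of the H2-Q copies can be exchanged between them. The classical heavy chains H2-K1 and H2-D1 were 3.52-fold and 3.19-fold higher in 65–79*PE, the light chain B2m 2.01-fold and the class I transactivator Nlrc5 4.05-fold, a group of 4 named after their values were seen. The general chaperones Calr and Pdia3, which also load class I, were not called (-0.11 and -0.15). Of 19 class I pathway genes, 15 were lower in 65–79*SE and none was higher, with a median of -1.82.

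Psmb9 (chromosome 17, 34181987 to 34187764), a catalytic subunit of the immunoproteasome, was at 6.35, 5.75 and 5.03 CPM in 65–79*SE, 51.5, 42.4 and 46.7 CPM in 65–79*PE and 5.69, 5.04 and 5.59 CPM in PBS (log2 difference -3.04 ± 0.11, edgeR adjusted p = 1.99e-09). Psmb8, the neighbouring catalytic subunit, was at 36.3, 36.6 and 33.6 CPM against 179.7, 151 and 154 CPM (log2 difference -2.19 ± 0.08, edgeR adjusted p = 1.68e-09). Neither gene overlapped between the peptides, and 65–79*SE lay close to PBS in each. All 6 immunoproteasome genes were lower in 65–79*SE, with Psmb10 3.68-fold and the activator subunit Psme1 3-fold apart. Among the 14 constitutive subunits none was called, with a median of -0.124, and Psmb6, the constitutive counterpart of Psmb9, had a log2 difference of 0.18.

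**Figure D2:**
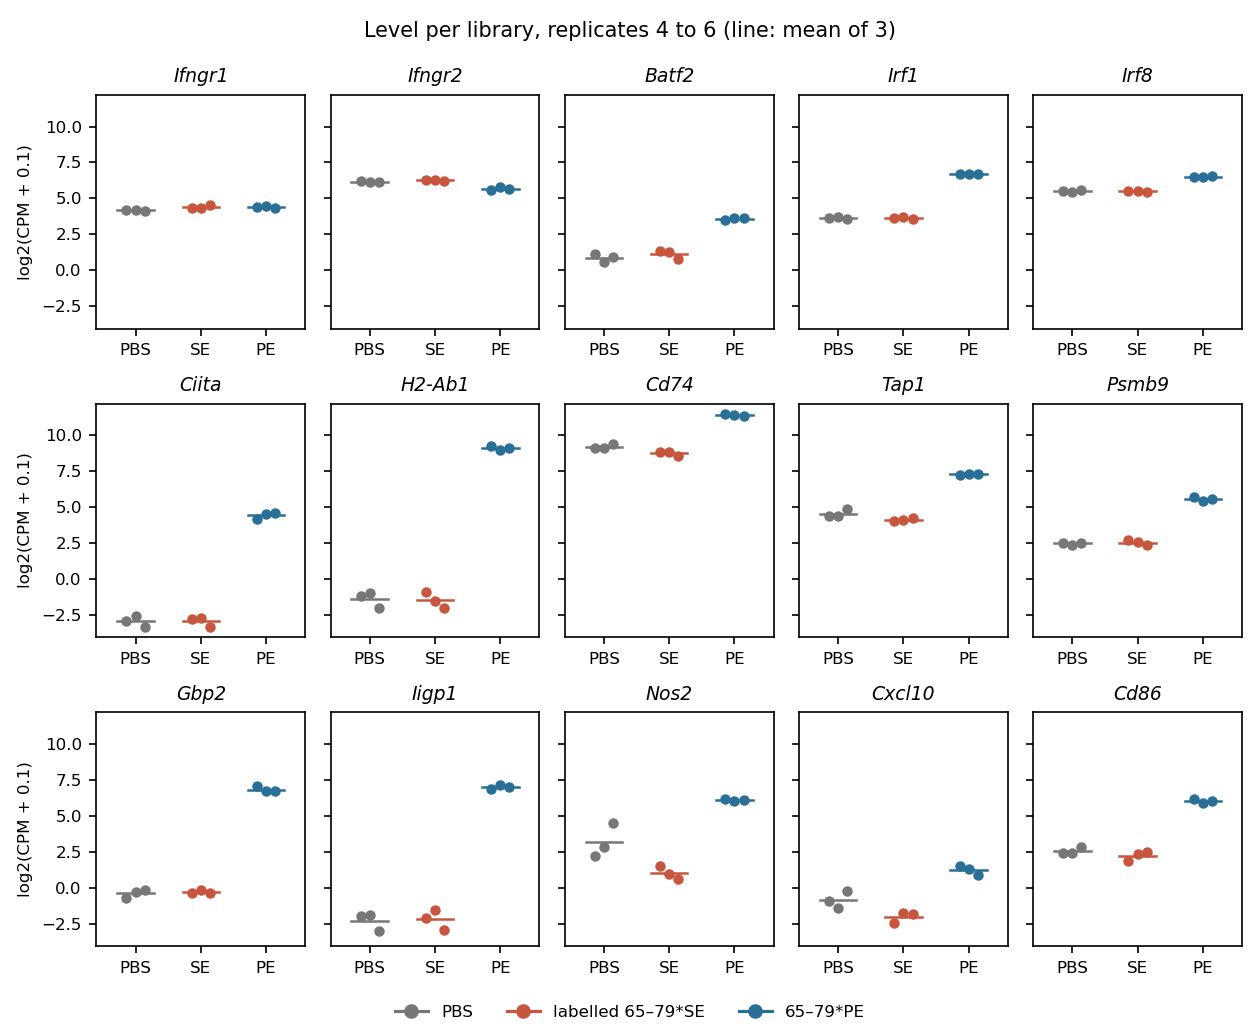
Levels as log2(CPM + 0.1) of 15 genes of the IFNγ response, 1 panel per gene, for PBS, 65–79*SE and 65–79*PE, with a point for each of replicates 4 to 6 and a line for the mean of 3. Ifngr1 differs little between the groups, Ifngr2 is lower in 65–79*PE, and in the other panels the 65–79*PE points stand above both of the other groups.

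Large interferon-inducible GTPases, which attack vacuoles that hold pathogens, were far lower outside 65–79*PE. Gbp2 (chromosome 3, 142620602 to 142638008), with the ISRE core printed above, was at 0.672, 0.779 and 0.689 CPM in 65–79*SE, 134, 104 and 104 CPM in 65–79*PE and 0.507, 0.729 and 0.792 CPM in PBS. That was a 160.1-fold difference (log2 difference -7.32 ± 0.17, edgeR adjusted p = 3.83e-11). Gbp4 was at 0.210, 0.390 and 0.180 CPM against 135, 113 and 111 CPM, 481-fold (log2 difference -8.91 ± 0.17, edgeR adjusted p = 1.63e-11). Gbp2b and Gbp6 were 138-fold and 189-fold higher in 65–79*PE, though Gbp2 is closely related to Gbp2b and Gbp6 is near-identical to Gbp10. All 11 guanylate binding proteins were lower in 65–79*SE, at a median of -6.10. Their summed level was 40.8 to 41.6 CPM in 65–79*SE, 648 to 763 CPM in 65–79*PE and 41.4 to 53.5 CPM in PBS.

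Among the immunity-related GTPases, Iigp1 (chromosome 18, 60376027 to 60392634) was at 0.126, 0.243 and 0.0300 CPM in 65–79*SE and 116, 142 and 128 CPM in 65–79*PE, a ratio of 1116 with a counting interval of 588 to 2441 (edgeR adjusted p = 9.96e-11). Tgtp1 had 5, 0 and 0 counts in 65–79*SE against 55.95, 58.6 and 51.7 CPM in 65–79*PE, a ratio of 855 with an interval of 366 to 2636, and its copy Tgtp2 differed 312-fold. Igtp was detected in all groups, at 4.83, 4.38 and 5.42 CPM in 65–79*SE, 35.1, 46.99 and 41.8 CPM in 65–79*PE and 5.99, 6.32 and 7.09 CPM in PBS (log2 difference -3.07 ± 0.13, edgeR adjusted p = 7.53e-09). The GTPases whose promoter windows share the joined GAS and ISRE letters thus ranged from the 5.77-fold difference of Irgm2, named after its value was seen, to that of Tgtp1. All 6 members tested of 7 were lower in 65–79*SE, at a median of -5.68.

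Genes classed as type I interferon stimulated were more mixed. Zbp1, a sensor of Z-form nucleic acids, was at 0.714, 0.925 and 0.689 CPM in 65–79*SE, 33.8, 28.6 and 28.01 CPM in 65–79*PE and 1.05, 1.15 and 2.61 CPM in PBS (log2 difference -5.30 ± 0.30, edgeR adjusted p = 9.21e-08). Ifit2, which binds foreign RNA, was 5.31-fold higher in 65–79*PE (log2 difference -2.41 ± 0.12, edgeR adjusted p = 3.12e-08), and the antiviral enzyme Rsad2 4.33-fold (log2 difference -2.11 ± 0.31, edgeR adjusted p = 0.000299). Oas1a, an oligoadenylate synthetase, was at 108, 122 and 117 CPM in 65–79*SE and 126, 123 and 120.3 CPM in 65–79*PE, overlapping values with an interval of -0.30 to 0.12, and Oas3 was also not called (0.07). The 2 members higher in 65–79*SE, named after their values were seen, were Oas2 (log2 difference 1.12 ± 0.13, edgeR adjusted p = 6.13e-05) and the RNA sensor Ddx58 (log2 difference 0.78 ± 0.08, edgeR adjusted p = 1.32e-05). Of 25 members, 16 were lower and 2 higher in 65–79*SE, at a median of -0.675. Against PBS, 8 members were higher and 3 lower in 65–79*PE, beside 6.16% and 4.66% of all genes, and none was called in 65–79*SE. The list medians against PBS were 0.311 in 65–79*PE and -0.423 in 65–79*SE, so both groups lay away from PBS.

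Of 14 chemokine ligands tested of 20 listed, 11 were lower in 65–79*SE and none was higher, at a median log2 difference of -1.83. Ccl2, which recruits monocytes and served as an M1 marker in the study, was at 11.5, 10.4 and 11.1 CPM in 65–79*SE, 45.4, 42.4 and 42.1 CPM in 65–79*PE and 13.97, 14.4 and 23.1 CPM in PBS. The 65–79*PE level was 3.94-fold that of 65–79*SE (log2 difference -1.98 ± 0.17, edgeR adjusted p = 3.59e-06). Cxcl10, the IFNγ-inducible ligand of CXCR3, was low throughout, at 0.0840, 0.195 and 0.180 CPM in 65–79*SE against 2.71, 2.33 and 1.72 CPM in 65–79*PE (log2 difference -3.83 ± 0.45, edgeR adjusted p = 5.34e-05). Cxcl9, its closest relative and named after its values were seen, had 1, 1 and 0 counts in 65–79*SE against 17.3, 8.33 and 9.73 CPM. The ligands Ccl4, Cxcl2 and Cxcl16 were 2.03-fold, 2.46-fold and 1.77-fold higher in 65–79*PE, with the call of Cxcl2 lost without replicate 5 (edgeR adjusted p = 0.0589). Ccl3, an inflammatory ligand, was not called (log2 difference -0.49 ± 0.20, edgeR adjusted p = 0.0788), nor was Ccl9 (0.23). Against PBS, 8 of the 14 ligands were higher and 1 was lower in 65–79*PE, beside 6.16% and 4.66% of all genes. Cxcl16 was higher there (1.81), Ccl4 and Cxcl2 were not called (-0.13 and -0.33), and Ccl3 was lower (-0.67, edgeR adjusted p = 0.0241). The summed ligand level was 507 to 608 CPM in 65–79*PE and 520 to 805 CPM in PBS. Chemokine receptors went both ways, with 6 of 10 tested lower and 3 higher in 65–79*SE. Ccr2, the receptor of Ccl2, was lower (log2 difference -1.66 ± 0.15, edgeR adjusted p = 6.34e-06), and Cxcr4, the receptor of Cxcl12, was higher (log2 difference 1.30 ± 0.25, edgeR adjusted p = 0.00179). The fractalkine receptor Cx3cr1 gave the largest difference of the higher receptors, at a mean of 6.43 CPM in 65–79*SE and 0.211 CPM in 65–79*PE (log2 difference 5.00 ± 0.89, edgeR adjusted p = 0.00113), and these 3 receptors were named after their values were seen.

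All 6 M1 markers of the study that could be tested were lower in 65–79*SE. The list holds the genes that the study read as M1 markers. Against PBS, 4 of the 6 were higher in 65–79*PE, beside 6.16% of all genes. In 65–79*SE, 2 were lower than in PBS, beside 0.482% of all genes. Nos2, the inducible nitric oxide synthase (chromosome 11, 78920787 to 78960254), was at 2.82, 1.80 and 1.41 CPM in 65–79*SE, 71.6, 66.4 and 69.9 CPM in 65–79*PE and 4.58, 7.16 and 22.8 CPM in PBS. The 65–79*PE level was 35.2-fold that of 65–79*SE (log2 difference -5.14 ± 0.54, edgeR adjusted p = 2.24e-05), and the PBS library of replicate 6 lay above the other PBS libraries. Il6, an inflammatory cytokine, was at 0.0420, 0.195 and 0.300 CPM against 2.74, 2.67 and 2.35 CPM (log2 difference -3.74 ± 0.44, edgeR adjusted p = 5.92e-05), and Tnf, which drives joint inflammation, at 32.7, 26.5 and 28.4 CPM against 54.3, 54.2 and 50.9 CPM (log2 difference -0.86 ± 0.10, edgeR adjusted p = 6.42e-05). Neither gene overlapped between the peptides, and the values of Tnf lay closest together. Il23a, the p19 chain of Il-23, was at 0.798, 1.61 and 1.38 CPM against 2.85, 3.02 and 2.26 CPM (log2 difference -1.10 ± 0.39, edgeR adjusted p = 0.0488), and that call was lost when any 1 of the 6 peptide libraries was left out (adjusted p = 0.0599 to 0.166). In PBS Il23a was at 2.15, 2.47 and 5.69 CPM, and 65–79*PE was not called against PBS (-0.36). Il1b, Il12a and Il12b were too low to test, with Il12a and Il12b at 0 in all 6 peptide libraries.

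Of the M2 markers, Arg1, Chil3 and Ccl17 were too low to test. Mgl2, a C-type lectin, was higher in 65–79*SE at 0.378, 0.341 and 0.509 CPM against 0.220, 0.0284 and 0.179 CPM (log2 difference 1.55 ± 0.53, edgeR adjusted p = 0.0433). It rested on 9, 7 and 17 counts against 6, 1 and 8. The call was lost when the 6 peptide libraries were fitted alone (edgeR adjusted p = 0.0599) and when any 1 library was left out except 65–79*PE replicate 4 and PBS replicate 6 (edgeR adjusted p = 0.0594 to 0.151).

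Of 9 tested genes of arginine, tryptophan and itaconate metabolism, 4 were lower and 1 was higher in 65–79*SE. Acod1, which makes itaconate, was at 12.98, 7.55 and 8.81 CPM in 65–79*SE, 97.5, 114 and 107 CPM in 65–79*PE and 14.98, 17.1 and 23.3 CPM in PBS (log2 difference -3.44 ± 0.19, edgeR adjusted p = 8.77e-08). Ass1, which regenerates arginine from citrulline, was at 6.35, 8.72 and 6.35 CPM against 56.5, 54.3 and 54.2 CPM (log2 difference -2.96 ± 0.12, edgeR adjusted p = 3.65e-09). Gch1, the entry enzyme for the NOS cofactor tetrahydrobiopterin, was 1.75-fold higher in 65–79*PE, and Asl, which acts after Ass1, was not called (-0.02). The higher member, named after its values were seen, was Arg2, the mitochondrial arginase, at 1.01, 1.12 and 1.29 CPM against 0.0732, 0.142 and 0.134 CPM (log2 difference 3.21 ± 0.41, edgeR adjusted p = 9.55e-05). Cybb, the catalytic subunit of the phagocyte NADPH oxidase, was at 317, 278 and 305 CPM in 65–79*SE and 984, 766 and 801 CPM in 65–79*PE (log2 difference -1.50 ± 0.10, edgeR adjusted p = 2.78e-07). Its membrane partner Cyba had a log2 difference of 0.13 and was not called. Of 7 oxidase genes 1 was called, near the 13.8% of all genes tested, so the count does not set the list apart.

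Surface ligands for T cells were higher in 65–79*PE for 8 of 13 tested and higher in 65–79*SE for 2. Cd86, which engages CD28, was at 3.49, 5.02 and 5.57 CPM in 65–79*SE, 71.97, 60.7 and 64.3 CPM in 65–79*PE and 5.13, 5.35 and 6.98 CPM in PBS (log2 difference -3.79 ± 0.16, edgeR adjusted p = 7.53e-09). Cd40, the receptor for T cell help, was at 10.4, 10.6 and 11.96 CPM against 57.3, 49.7 and 50.03 CPM (log2 difference -2.25 ± 0.25, edgeR adjusted p = 3.35e-05), with PBS at 14, 16.4 and 31.9 CPM. Slamf8, a macrophage surface receptor, was at 2.73, 2.24 and 2.49 CPM against 55.1, 52.5 and 53.5 CPM (log2 difference -4.43 ± 0.12, edgeR adjusted p = 1.04e-10). In each of the 3 genes 65–79*PE lay above every other library. Cd274, the checkpoint ligand PD-L1, was 4.47-fold higher in 65–79*PE, and the 2 members higher in 65–79*SE were Cd80, the partner of Cd86 (log2 difference 0.87 ± 0.17, edgeR adjusted p = 0.00246), and Tnfrsf9, a costimulatory receptor (log2 difference 2.85 ± 0.48, edgeR adjusted p = 0.000735), all 3 named after their values were seen. The adhesion ligand Icam1 was not called (-0.11).

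Complement genes showed 12 of 16 tested lower in 65–79*SE, at a median of -2.56. C1qc, a chain of the initiator C1q, had no count in any 65–79*SE or PBS library and was at 52.5, 37.5 and 42.1 CPM in 65–79*PE, at least 1121-fold higher (edgeR adjusted p = 9.38e-08). C1qb, another chain, had 3, 1 and 0 counts in 65–79*SE against 46.9, 34.4 and 35.1 CPM. C3, the central component, was at 10.04, 11.3 and 10.4 CPM in 65–79*SE, 134, 129 and 128 CPM in 65–79*PE and 6.19, 5.56 and 5.29 CPM in PBS (log2 difference -3.63 ± 0.08, edgeR adjusted p = 3.83e-11), and 65–79*SE lay above PBS. Receptors differed less, with C3ar1 1.57-fold and C5ar1 1.99-fold higher in 65–79*PE. The activating Fc receptor Fcgr1, a classical IFNγ target, was at 60.6, 58.1 and 60.02 CPM against 178, 180 and 173 CPM (log2 difference -1.57 ± 0.15, edgeR adjusted p = 1.09e-05), while the shared signalling chain Fcer1g was not called (0.00).

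The 10 largest differences toward 65–79*PE also held 3 genes outside these families. Fgl2, a prothrombinase of activated macrophages, had no count in 65–79*SE and was at 36.3, 33.8 and 30 CPM in 65–79*PE, at least 851-fold higher. Ly6a, an interferon-inducible surface protein, had 2, 1 and 0 counts against 102, 108 and 93.7 CPM, a ratio of 2598 with a counting interval of 889 to 12600. Serpina3f, a serine protease inhibitor, had 1, 0 and 0 counts against 28.5, 21.8 and 21.2 CPM, a ratio of 1809 with an interval of 324 to 71490. The fitted difference of genes at 0 depends on the prior count, so only the bounds are given here.

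Sensing genes were called in part. Tlr9, the receptor for CpG DNA, was at 6.01, 6.67 and 5.36 CPM in 65–79*SE and 25.3, 25.6 and 27.3 CPM in 65–79*PE (log2 difference -2.12 ± 0.11, edgeR adjusted p = 3.12e-08), and 4 of 13 genes of its list were lower in 65–79*SE. Tlr7, its neighbour in the endosome, had a log2 difference of 0.21 and was not called. Casp4 and Casp1, the caspases of pyroptosis, were 3.03-fold and 2.21-fold higher in 65–79*PE, and the inflammasome sensor Nlrp3 2.30-fold. In that list 6 of 15 tested were lower in 65–79*SE and none higher. Of 14 NF-κB subunits and inhibitors, 2 were lower, Nfkbiz (log2 difference -1.95 ± 0.12, edgeR adjusted p = 1.68e-07) and Nfkbib (log2 difference -0.83 ± 0.15, edgeR adjusted p = 0.00124), and the subunit Nfkb1 was not called (-0.50). Over all genes tested 7.9% were lower, and the median of this list was 0.041, so the 2 calls do not describe the list. Clec7a, the beta-glucan receptor, was at 16.5, 15.97 and 16 CPM against 106, 80.7 and 87.5 CPM (log2 difference -2.50 ± 0.10, edgeR adjusted p = 4.23e-09).

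Markers of the macrophage line were present in every library. Csf1r, the receptor for the survival factor CSF-1, was at 495, 433 and 439.5 CPM in 65–79*SE and 488, 418 and 426 CPM in 65–79*PE, with an interval of -0.29 to 0.37. Spi1, the transcription factor PU.1, was at 156, 169 and 155 CPM against 154, 158 and 163 CPM, with an interval of -0.13 to 0.16. Both genes overlapped between the peptides, and Cd68, Lyz2, Tyrobp, Ptprc and Cd14 were not called (0.52, 0.35, 0.56, -0.47 and 0.50). Besides Fcgr1, further identity genes were higher in 65–79*PE. Adgre1, which encodes F4/80, was at 63.9, 60.6 and 62.02 CPM against 132, 116 and 110.3 CPM (log2 difference -0.94 ± 0.07, edgeR adjusted p = 1.86e-06), and Aif1, which encodes the actin-binding protein Iba1, was at 1.18, 1.32 and 1.02 CPM against 47.2, 34.6 and 38.2 CPM (log2 difference -5.11 ± 0.18, edgeR adjusted p = 1.61e-09). Cebpa, a myeloid lineage factor, was higher in 65–79*SE (log2 difference 0.89 ± 0.22, edgeR adjusted p = 0.00773), a call lost without replicate 5 of both peptides and PBS (edgeR adjusted p = 0.0811). Over the 15 tested identity genes, 4 were lower and 1 higher, and the summed level was 8052 to 9101 CPM in 65–79*SE, 6978 to 7586 CPM in 65–79*PE and 5160 to 6685 CPM in PBS.

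Markers of other cells were near 0 in all libraries. None of 7 T cell, 5 B cell, 5 epithelial and 7 neutrophil or mast cell markers passed the filter, and 1 of 6 fibroblast markers did, Pdgfra, which was not called (0.90). Summed T cell markers were at most 0.479 CPM, B cell markers at most 0.0853 CPM and neutrophil or mast cell markers at most 0.967 CPM in the 6 peptide libraries, and epithelial markers had no count. In bulk RNA, fewer cells with a transcript and less transcript per cell cannot be told apart.

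**Figure D3:**
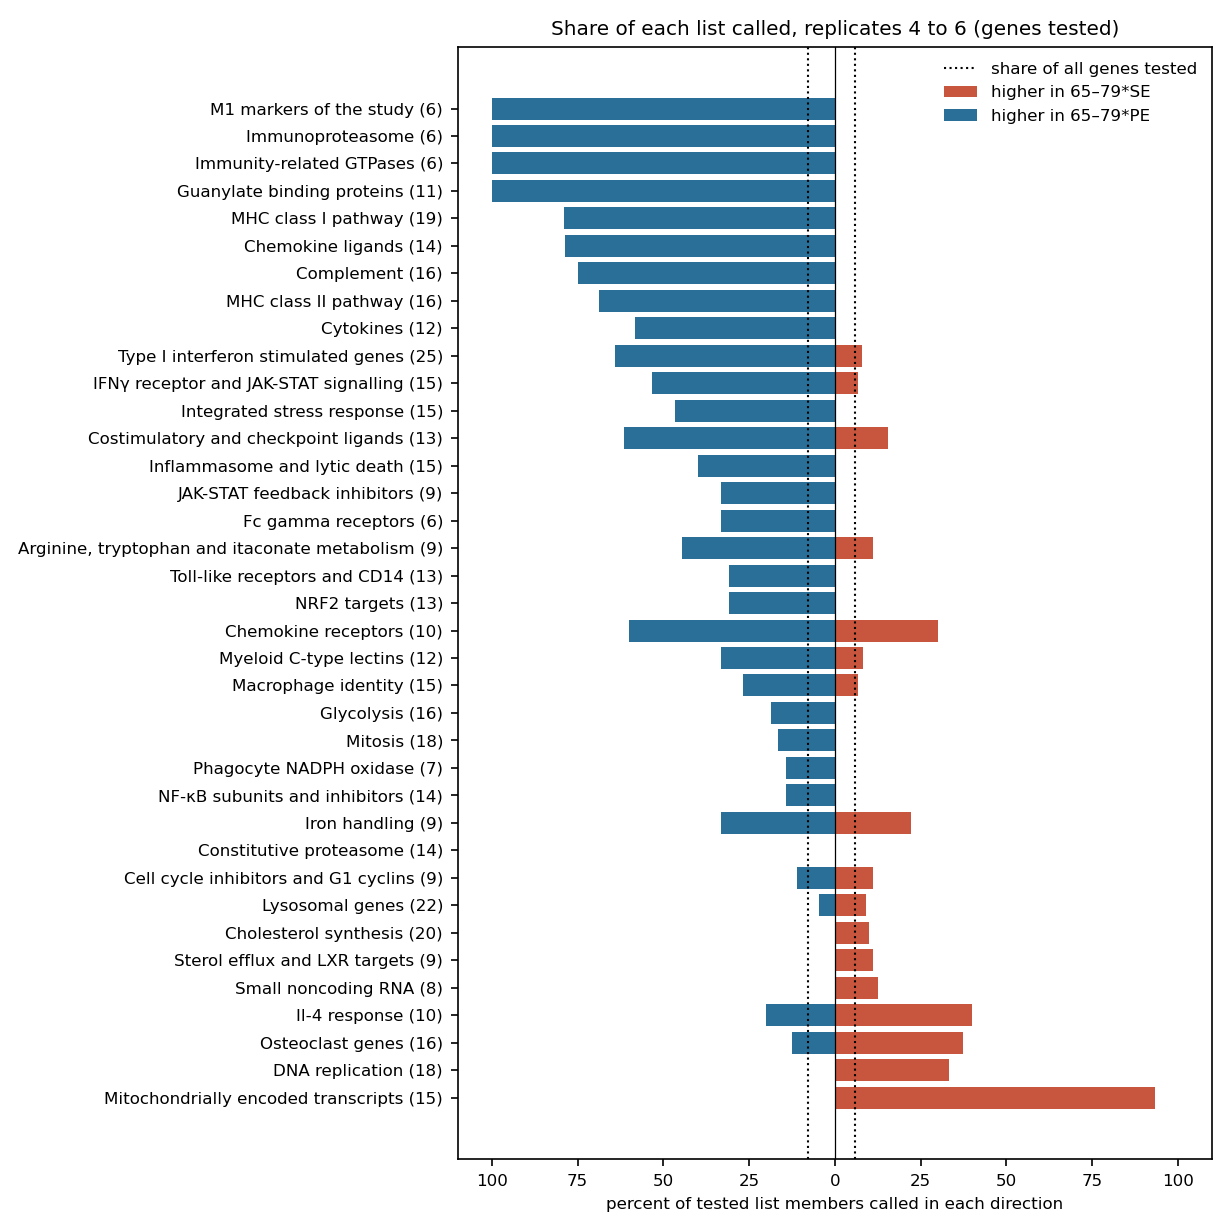
For 37 gene lists with at least 5 genes tested, bars show the percent of tested members called, to the left when higher in 65–79*PE and to the right when higher in 65–79*SE, and dotted lines mark the shares over all genes, 7.9% and 5.91%. Lists of antigen presentation, GTPases and chemokines extend to the left, and mitochondrial transcripts, DNA replication, osteoclast and Il-4 response genes extend to the right.

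In the 10 genes with the largest called difference toward the libraries labelled 65–79*SE, taken among genes with a mean of at least 10 CPM and no overlap between the peptides, every PBS value lay above every 65–79*PE value. The choice favours genes that are low in 65–79*PE, so the place of PBS follows in part from it and carries no test. Igfbp4, an insulin-like growth factor binding protein, was at 28.2, 28.4 and 21 CPM in 65–79*SE, 1.43, 3.04 and 3.29 CPM in 65–79*PE and 22.4, 23.1 and 11.6 CPM in PBS, or 9.67-fold higher than in 65–79*PE (log2 difference 3.27 ± 0.30, edgeR adjusted p = 8.08e-06). Spink5, a serine protease inhibitor, was at 51.9, 45.9 and 50.9 CPM against 4.57, 5.92 and 6.06 CPM, with PBS at 64.1, 67.2 and 95.3 CPM (log2 difference 3.15 ± 0.16, edgeR adjusted p = 3.49e-08). Tmem176b, a membrane protein of myeloid cells, was at 31.1, 30.6 and 30.6 CPM against 5.12, 3.56 and 4.29 CPM (log2 difference 2.84 ± 0.13, edgeR adjusted p = 1.59e-08). None of the 3 genes overlapped between the peptides. Ndrg4, Tspan10, St6gal1, Cldn11, Arsb and Gas7 were 6.44, 6.08, 4.76, 4.62, 4.60 and 4.56 times as high in 65–79*SE, and Ctsk, described with the osteoclast genes, 4.77 times. St6gal1 is a sialyltransferase, Cldn11 a tight junction protein and Arsb a lysosomal sulfatase.

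**Figure D4:**
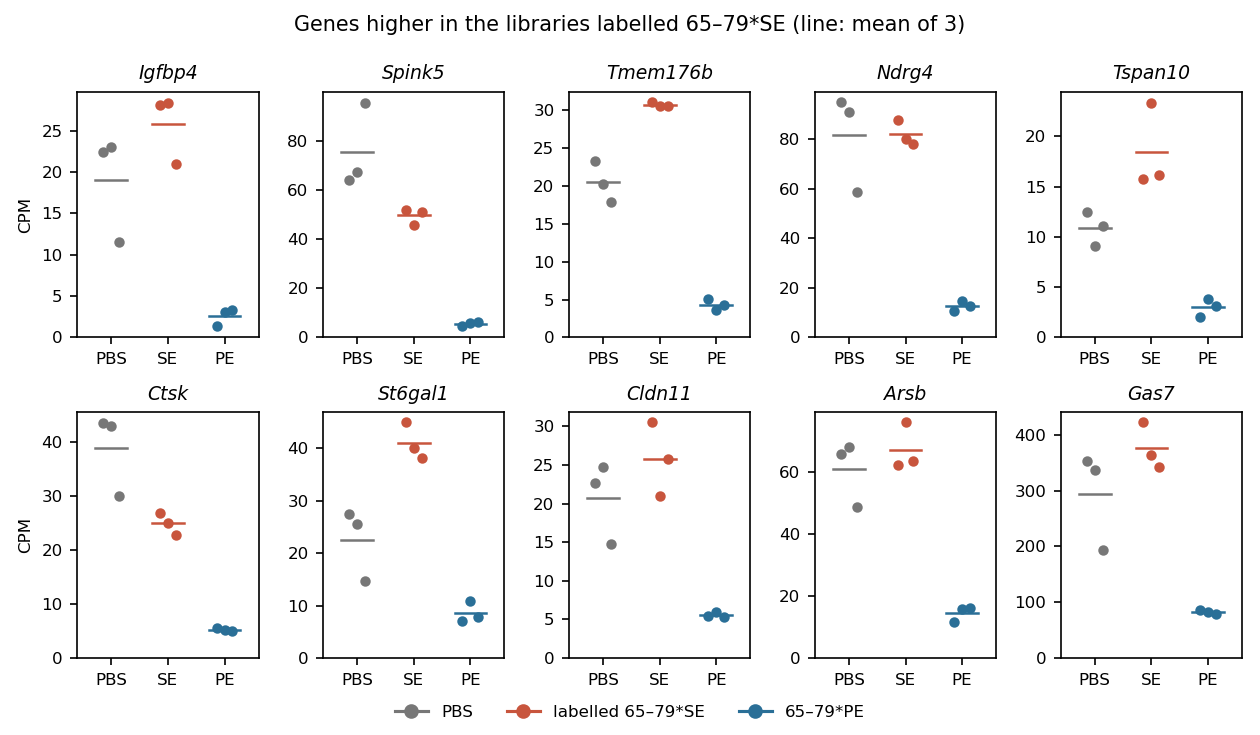
Levels in CPM from 0 of the 10 genes with the largest called difference in favour of 65–79*SE, 1 panel per gene, with a point for each of replicates 4 to 6 and a line for the mean of 3. In every panel the 65–79*SE points lie above the 65–79*PE points, by the choice of genes. The PBS points also lie above 65–79*PE, which follows in part from that choice.

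Osteoclast genes were called mostly toward 65–79*SE. RAW264.7 cells can form osteoclasts, and 6 of 16 tested genes of that list were higher in 65–79*SE and 2 were lower, at a median of 0.662. Ctsk, the collagen-degrading cathepsin K, was at 26.98, 25.1 and 22.8 CPM in 65–79*SE, 5.53, 5.23 and 4.96 CPM in 65–79*PE and 43.6, 43.1 and 29.99 CPM in PBS (log2 difference 2.25 ± 0.15, edgeR adjusted p = 3.03e-07). PBS was the highest group for Ctsk, and 65–79*SE was below it (-0.64, edgeR adjusted p = 0.0454). Atp6v0d2, a proton pump subunit needed for osteoclast fusion, was at 197, 205 and 209.8 CPM against 60.6, 74.2 and 66.2 CPM (log2 difference 1.61 ± 0.10, edgeR adjusted p = 2.65e-07). Mitf, a transcription factor of the lineage, and Car2, the carbonic anhydrase of bone resorption, were 1.84-fold and 1.90-fold higher, and Car2 lost its call without 65–79*PE replicate 6 (edgeR adjusted p = 0.0561) or 65–79*SE replicate 4 (edgeR adjusted p = 0.0707). The lower members, named after their values were seen, were Ocstamp, a fusion protein (log2 difference -2.48 ± 0.46, edgeR adjusted p = 0.00143), and the chloride exchanger Clcn7 (-0.62). Csf1, the growth factor of the lineage, was lower too, at 3.03, 3.94 and 5.36 CPM in 65–79*SE against 28.6, 32.7 and 34.6 CPM in 65–79*PE (log2 difference -2.94 ± 0.37, edgeR adjusted p = 9.59e-05), and the pump subunit Tcirg1 was not called (-0.06).

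Of 9 tested iron handling genes, 2 were higher and 3 were lower in 65–79*SE. Tfrc, the transferrin receptor, was at 317, 241 and 283 CPM in 65–79*SE, 96.5, 114 and 99.02 CPM in 65–79*PE and 261, 262 and 246 CPM in PBS (log2 difference 1.44 ± 0.10, edgeR adjusted p = 5.50e-07). Steap3, the endosomal ferrireductase, was 2.07-fold higher in 65–79*SE (log2 difference 1.05 ± 0.15, edgeR adjusted p = 0.000202). Slc40a1, the iron exporter ferroportin, was at 26.9, 50.3 and 39.7 CPM against 73.3, 107 and 90.2 CPM (log2 difference -1.21 ± 0.19, edgeR adjusted p = 0.000472), and Slc11a1, the phagosomal metal pump that limits intracellular bacteria, at 69.8, 96.9 and 74.3 CPM against 169, 204 and 186 CPM (log2 difference -1.22 ± 0.14, edgeR adjusted p = 5.84e-05). Ferritin heavy and light chains were not called (Fth1 0.06, Ftl1 -0.44).

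DNA replication genes were higher in 65–79*SE for 6 of 18, with none lower and a median of 0.525. Mcm6, part of the replicative helicase, was at 75.2, 56.2 and 54.8 CPM in 65–79*SE, 19.9, 21.7 and 18.8 CPM in 65–79*PE and 54, 47.7 and 25.7 CPM in PBS (log2 difference 1.62 ± 0.22, edgeR adjusted p = 0.000178). Mcm4, Mcm7 and the ribonucleotide reductase subunit Rrm2 were 1.87-fold, 1.86-fold and 2.04-fold higher, and Ccne2, a cyclin of S phase entry, 2.91-fold. The call of Mcm7 was lost without replicate 5 (edgeR adjusted p = 0.0638). The other helicase subunit Mcm2 was not called (-0.27). Among mitosis genes none was higher and 3 of 18 were lower in 65–79*SE, the checkpoint kinase Bub1b (log2 difference -0.79 ± 0.16, edgeR adjusted p = 0.00267), the kinesin Cenpe (log2 difference -0.66 ± 0.15, edgeR adjusted p = 0.00661) and the anaphase activator Cdc20 (log2 difference -0.65 ± 0.16, edgeR adjusted p = 0.00861), at a list median of -0.216. Without 65–79*PE replicate 4 these 3 differences were -0.55, -0.41 and -0.44, under 1.5-fold, and that of Cdc20 was also under it without 65–79*SE replicate 4 (-0.56). Against PBS, 13 of the 18 mitosis genes were higher in 65–79*PE, beside 6.16% of all genes, and none was called in 65–79*SE. The medians against PBS had the same sign, 0.732 in 65–79*PE and 0.49 in 65–79*SE. Summed mitosis levels overlapped between the peptides, at 861.6 to 1302 CPM in 65–79*PE and 891 to 1029 CPM in 65–79*SE. In PBS they were 703.7, 707.8 and 497.4 CPM in replicates 4, 5 and 6. Ccnd2, a D-type cyclin, was at 1.39, 1.80 and 1.71 CPM against 26.2, 25.03 and 26.1 CPM (log2 difference -3.98 ± 0.25, edgeR adjusted p = 2.47e-07).

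Transcripts of the mitochondrial genome were higher in 65–79*SE for 14 of 15, at a median of 0.953, and all 15 lay above every 65–79*PE value in 65–79*SE, as did 22% of all tested genes. mt-Cytb, a subunit of complex III, was at 1529, 1780 and 1662 CPM in 65–79*SE, 521, 536 and 549.7 CPM in 65–79*PE and 1497, 1466 and 1066 CPM in PBS (log2 difference 1.63 ± 0.12, edgeR adjusted p = 8.91e-07). The ribosomal RNAs mt-Rnr1 and mt-Rnr2 were 2.71-fold and 2.41-fold higher, and mt-Co1, a subunit of complex IV, did not reach 1.5-fold (log2 difference 0.26 ± 0.09, edgeR adjusted p = 0.0387). The mitochondrial share of all counts was 4.98% to 5.94% in 65–79*SE, 3.30% to 3.50% in 65–79*PE and 4.35% to 5.17% in PBS. The share of small noncoding RNA overlapped between the peptides, at 16.2% to 20.1% in 65–79*SE and 14.6% to 17.9% in 65–79*PE, and that of histone genes was 0.558% to 0.629% against 0.372% to 0.540%. The mitochondrial and histone shares moved with the peptide label, and their part in the results was not tested. With small noncoding, mitochondrial and histone genes left out, 2095 genes were called.

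Further lists were called in smaller or mixed shares, beside 5.91% higher and 7.9% lower in 65–79*SE over all genes tested. The counts of the cholesterol synthesis and lysosomal lists lay near those shares and set neither list apart. Of 20 cholesterol synthesis genes, 2 were higher in 65–79*SE, among them Idi1, an isomerase of the pathway (log2 difference 0.81 ± 0.09, edgeR adjusted p = 4.58e-05), and the list median was 0.255. Of 22 lysosomal genes, 2 were higher, the pump subunit Atp6v1a and the glucuronidase Gusb, and 1 was lower, Ctsc, which activates granule proteases, at 62.4, 63.1 and 70.95 CPM against 339.8, 226 and 255 CPM (log2 difference -2.06 ± 0.15, edgeR adjusted p = 1.26e-06). Of 16 glycolysis genes, 3 were lower in 65–79*SE, namely Hk3 (-1.01), the glucose transporter Slc2a1 (-0.89) and the lactate exporter Slc16a3 (-0.79, a call lost without replicate 5 or replicate 6), and Aldoa and Pkm were not called (0.13 and -0.03). The integrated stress response had 7 of 15 lower, among them Ddit3 (log2 difference -1.57 ± 0.15, edgeR adjusted p = 1.04e-05), Atf3 (log2 difference -1.23 ± 0.11, edgeR adjusted p = 8.45e-06) and Trib3 (log2 difference -1.08 ± 0.11, edgeR adjusted p = 1.52e-05), with Atf4 itself not called (-0.37). The NRF2 list had 4 of 13 lower, with Prdx1 at -0.91 and Hmox1, which degrades heme, at -0.77. Of 10 tested Il-4 response genes, 4 were higher in 65–79*SE, Mgl2, Tfrc, Egr2 (log2 difference 1.05 ± 0.37, edgeR adjusted p = 0.0468) and Irf4 (log2 difference 1.25 ± 0.18, edgeR adjusted p = 0.000251), and 2 were lower, Socs1 and the receptor chain Il4ra (log2 difference -1.44 ± 0.14, edgeR adjusted p = 1.24e-05). The transcription factors Egr2 and Irf4 and the receptor Il4ra were named after their values were seen.

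Set against PBS, the libraries labelled 65–79*SE differed in few genes and those labelled 65–79*PE in many, with the caution that the comparisons share libraries and are given side by side. The 65–79*SE against PBS test called 112 of the 15563 genes, or 0.72%, with 37 higher (0.238%) and 75 lower (0.482%), and the 65–79*PE against PBS test called 1685, or 10.8%, with 959 higher (6.16%) and 726 lower (4.66%). The first count moved with the libraries fitted. It was 187 without replicate 4, 0 without replicate 5 and 30 without replicate 6, and 275 with the replicate number as a block. Without replicate 5, 2238 of 15955 genes had an unadjusted p under 0.05. No class II, immunoproteasome or GTPase gene was called between 65–79*SE and PBS. The list medians against PBS were -0.111, -0.322 and -0.306 for class II genes, guanylate binding proteins and immunity-related GTPases in 65–79*SE, and 3.43, 5.48 and 5.83 in 65–79*PE. Of the genes described above, some were lower in 65–79*SE than in PBS, Nos2 by a log2 difference of -2.55 (edgeR adjusted p = 0.0481), Cxcl2 by -1.63 (0.0381), Ccl4 by -1.15 (0.0331) and Tnf by -0.68 (0.0193). Ccnd2 (-1.57, edgeR adjusted p = 0.0246), Ccl3 (-1.16, 0.0246), Acod1 (-0.92, 0.0477) and Irf7 (-0.80, 0.033) were lower too. In PBS replicates 4, 5 and 6, Cxcl2 was at 15.4, 17.99 and 42.8 CPM and Ccl4 at 37.2, 33.97 and 67.03 CPM, and the library of replicate 6 was the highest of the 3 for these genes, for Nos2 and for Tnf. The ligand Cxcl16 was higher in 65–79*SE by 0.99 (edgeR adjusted p = 0.0477). C3 was also higher by 0.89 (edgeR adjusted p = 0.00313), as were Lyz2 by 0.82 (0.0423) and the cholesterol exporter Abca1 by 0.76 (0.0246). With no gene called without replicate 5, each of these calls was lost there.

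The same peptides had been given with IFNγ in replicates 1 to 3, whose libraries were not fitted together with replicates 4 to 6 in the comparison above. There, 933 of 15343 genes were called between 65–79*SE and 65–79*PE, or 6.08%, with 688 higher in 65–79*SE, or 4.48%, and 245 lower, or 1.6%. IFNγ targets were present under both peptides in those libraries. Irf1 was at 77.5 ± 5.31 CPM (SD, n = 3) in 65–79*SE and 121 ± 11.96 CPM in 65–79*PE, a difference of -0.65 (edgeR adjusted p = 5.81e-05). Cd74 was at 3389 ± 160 and 4686 ± 134 CPM and not called (-0.47), and Iigp1 was at 42.4 ± 3.66 and 47.3 ± 2.41 CPM and not called (-0.16). Nos2 was at 316 ± 23.6 and 186 ± 13.9 CPM, not called (0.76, edgeR adjusted p = 0.0537), and Gbp2 was at 228 ± 21.6 and 92.4 ± 2.58 CPM, higher in 65–79*SE (1.30, edgeR adjusted p = 1.15e-07). Small noncoding RNA made up less than 0.01% of counts there, so the 2 sets of libraries also differ in the RNA they hold, and that part was not tested.

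The difference between the peptides was itself different in the 2 sets of replicates. In the test of that interaction, 4856 of 16845 genes passed an adjusted p of 0.05, or 28.8%, and 2796 of them, or 16.6% of those tested, also differed by at least 1.5-fold. Of the 2017 genes called in replicates 4 to 6 and tested in replicates 1 to 3, 314 were called in replicates 1 to 3 as well, of which 130 kept their sign and 184 had the opposite sign. The list medians in replicates 1 to 3 were 0.447 for guanylate binding proteins, 5 of 11 of them higher in 65–79*SE, 1.24 for chemokine ligands, with 14 of 16 tested higher, and -0.493 for class II genes, with 2 lower. Mitochondrial transcripts had a median of -0.183 and 1 lower gene. DNA replication genes had a median of 0.414 there, with 1 of 18 higher, and Mcm6 and Tfrc were higher in 65–79*SE in both sets (Mcm6 0.63, edgeR adjusted p = 0.0102, Tfrc 0.59, edgeR adjusted p = 0.0255).

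**Figure D5:**
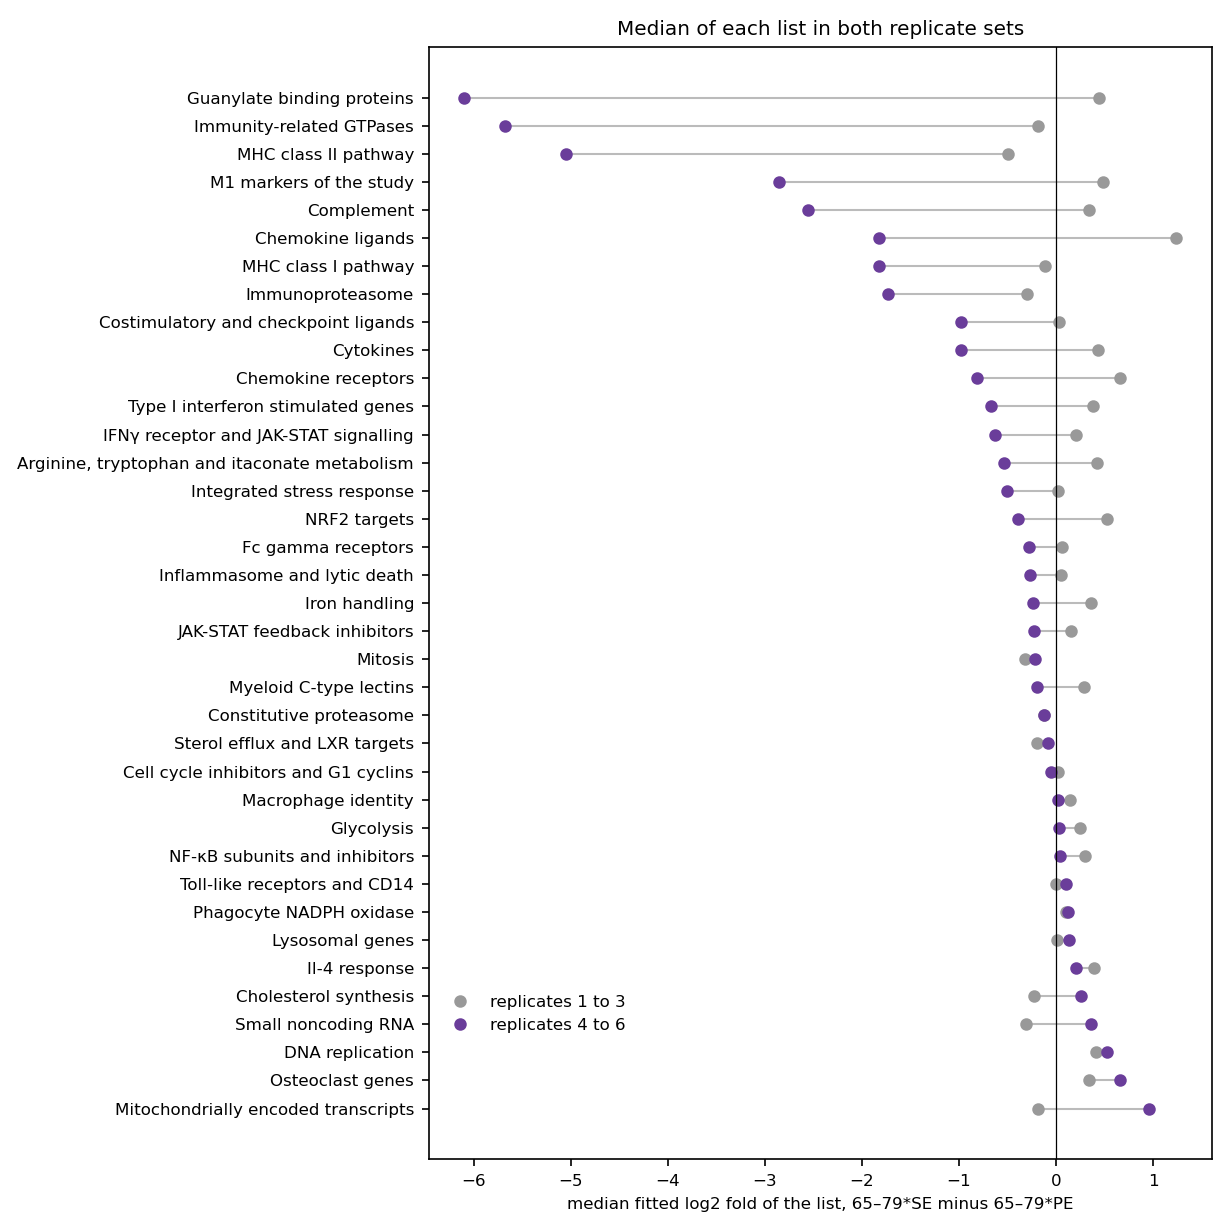
Median fitted log2 difference, 65–79*SE minus 65–79*PE, of the tested members of each gene list, in replicates 1 to 3 (grey) and replicates 4 to 6 (purple). Guanylate binding proteins and chemokine ligands have medians of 0.447 and 1.24 in replicates 1 to 3, and -6.10 and -1.83 in replicates 4 to 6.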

How the data were processed

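Counts per gene were deposited by the authors as a whole-number table of the IFNγ experiment, with 18 libraries, and the Il-4 table was not used here. Per the study's methods and the submitters' processing notes, mRNA libraries from a stranded kit were read from 1 end, and uniquely aligned reads were counted with featureCounts over GENCODE genes on GRCm38.p5. Other versions named there were R 3.4.1 and DESeq2 1.16.1. The aligner and the strand setting are not given in the sources used here. The tables held 0 columns without a sample.

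The 9 libraries of replicates 4 to 6 (65–79*SE, 65–79*PE and PBS, 3 each) were fitted together with edgeR 4.0.16 and limma 3.58.1 in R 4.3.3, using TMM scaling and filterByExpr, which kept 15563 of 49568 genes. Quasi-likelihood tests were adjusted by Benjamini-Hochberg over all genes tested, and genes were called at an adjusted p below 0.05 and 1.5-fold. The biological coefficient of variation was 0.105. Intervals are at 95%, and intervals on ratios and the limit of 3 counts cover counting error only. The difference between replicate sets was an interaction contrast over all 18 libraries. In simulated counts for 65–79*SE against 65–79*PE over 15330 genes, 100 genes were given a 2-fold change and 100 a 4-fold change. Of these, 91% and 100% were recovered, with 6 false calls. The changed genes were drawn from those with higher levels and all others were left unchanged. Recovery among genes of low level, or with as many changes as in these data, was therefore not measured.

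The labels number the replicates. Deviations from the group means correlated between same-numbered 65–79*SE and 65–79*PE libraries at 0.107, 0.101 and 0.155. With the PBS library of the same number the values were -0.0191, -0.0538 and 0.112 for 65–79*SE. For 65–79*PE with PBS they were -0.0151, -0.0462 and 0.0448. Libraries of different numbers were not correlated, so whether the numbers pair cultures is not settled. The main fit used no pairing, and a fit with the number as a block was an alternative. Coordinates came from a GENCODE annotation of GRCm38 by symbol, matched for 47287 names. Promoters came from RefSeq.

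Genes were named as the 10 largest called differences each way with a mean of at least 10 CPM and no overlap, up to 4 called and 2 uncalled members per list, all members of the receptor, feedback, class II, M1, M2 and identity lists, and 6 genes called in opposite directions in the 2 replicate sets. The comparison and the lists were chosen with earlier results of these data known. Alternatives were other scalings, filters, gene and library subsets, a test against 1.5-fold, DESeq2 1.42.0, and leaving libraries out. Some named genes are not reported here.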

Additional observations from a re-analysis of the deposited data

Results flagged for a closer look

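The results below met a rule set for a difference of effects: the 65–79*SE minus 65–79*PE difference was not the same in replicates 4 to 6 as in replicates 1 to 3, by edgeR's quasi-likelihood test of the interaction over all 18 libraries of the IFNγ table. Over all genes tested, 4856 of 16845, or 28.8%, passed an adjusted p of 0.05. Of the 219 genes named under the naming rule that were tested, 155 passed. Many of the 219 were named for their difference in replicates 4 to 6, and the interaction uses those same values. The count of 155 therefore follows in part from the choice and cannot be compared with the share over all genes. Groups of 3 libraries were too small for an outlier test.

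Among genes called in opposite directions in the 2 sets, the 6 with the largest fitted change of the difference were named. Both the opposite calls and the ranking use the values that the interaction tests. The p-values of these 6 genes therefore followed from the choice and add no support. The guanylate binding protein Gbp4 had a log2 change of -9.81 (edgeR adjusted p = 2.28e-17), being at means of 129.6 CPM in 65–79*SE and 70.6 CPM in 65–79*PE in replicates 1 to 3 and at 0.260 and 119.7 CPM in replicates 4 to 6. For Gbp2 the change was -8.65 (edgeR adjusted p = 2.28e-17) and for its close relative Gbp2b -8.37 (edgeR adjusted p = 6.26e-15), with differences of 1.30 and 1.24 in replicates 1 to 3. For the complement gene C1qb it was -10.41 (edgeR adjusted p = 8.50e-14), from 0.93 in replicates 1 to 3. For C1qc and the protease inhibitor Serpina3f, with no count and 1 count over the 3 libraries of 65–79*SE in replicates 4 to 6, the fitted values of -14.4 (edgeR adjusted p = 4.00e-13) and -11.65 (edgeR adjusted p = 6.07e-13), and so their place among the 6, depend on the prior count and are no bound. In replicates 1 to 3 their differences were 0.69 and 1.11.

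Of 7 M1 markers of the study tested for this change of the difference, 6 passed an adjusted p of 0.05. The changes were -5.92 for Nos2 (edgeR adjusted p = 1.24e-06), -5.07 for Cxcl10 (edgeR adjusted p = 3.69e-07), -3.57 for Il6 (edgeR adjusted p = 1.75e-05), -2.48 for Ccl2 (edgeR adjusted p = 9.14e-09) and -1.31 for Tnf (edgeR adjusted p = 4.33e-06). For Il1b, too low to test in replicates 4 to 6 on their own, the change was -3.99 (edgeR adjusted p = 0.0120), and for Il23a it was -0.22 and did not pass (edgeR adjusted p = 0.792). Cxcl10 and Il1b were higher in 65–79*SE in replicates 1 to 3 (1.23 and 1.89), Il23a was lower there (-0.90), and Nos2, Il6, Ccl2 and Tnf were not called there (0.76, -0.19, 0.48 and 0.43).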

How the results depend on the processing

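The count of genes called between 65–79*SE and 65–79*PE, 2150, stayed between 1755 (protein-coding genes only) and 2383 (no filter on low counts) under other scalings, filters, gene sets, library sets and DESeq2, and fell to 852 when the test was made against 1.5-fold itself, which asks more of each gene by construction. With the replicate number as a block it was 2139, and the block changed the count by over 1.5 times only for 65–79*SE against PBS (275). Without 1 peptide library it was 1902 to 2073, without 1 PBS library 2108 to 2223 (an alternative chosen after seeing the data), and without 1 replicate number 1693 to 2058. The 112 genes called between 65–79*SE and PBS became 519 with no filter on low counts and 318 with DESeq2, and 0 to 187 without 1 replicate number. Where edgeR called 0, without replicate 5, 2238 of 15955 genes had an unadjusted p under 0.05, and the smallest adjusted p was 0.146. The cause was not tested. 65–79*PE against PBS ranged from 1199 to 1936, and the interaction from 2319 to 2946. Of 136 called genes among the 219 named and tested, 35 lost their call in at least 1 alternative, the others kept it in every alternative run, and none changed direction. Genes named after their values were seen were not recomputed under the alternatives. With 3 libraries per peptide and 65–79*SE totals from 20666573 counts, levels under about 0.145 CPM were not resolved.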

Other observations

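Of 16 tested osteoclast genes, 5 were lower in the libraries labelled 65–79*SE than in PBS, beside 0.482% of all genes, at a list median of -0.398. All 5 lost their call without replicate 5. Acp5 and Mmp9 were named after their values were seen. Acp5, the tartrate-resistant acid phosphatase, was at 9.96, 8.57 and 9.86 CPM in 65–79*SE, 3.37, 2.87 and 3.40 CPM in 65–79*PE and 18.1, 19.8 and 13.4 CPM in PBS. Mmp9, a matrix metalloproteinase, was at 3.36, 2.24 and 2.16 CPM, 0.915, 0.853 and 0.850 CPM and 5.62, 6.60 and 9.05 CPM in the same order. In both genes 65–79*PE was the lowest group, as it was for Ctsk.

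C-type lectins of myeloid cells were called in both directions, with 4 of 12 lower and 1 higher in 65–79*SE, beside 7.9% and 5.91% of all genes. Beside Clec7a, the inhibitory receptor Clec12a was at 100.3, 79.1 and 86.7 CPM in 65–79*SE and 240.3, 177 and 179 CPM in 65–79*PE (edgeR adjusted p = 2.34e-05), and Clec4a2, another inhibitory receptor, was at 19.1, 15.2 and 18.8 CPM against 29.9, 36.2 and 33.2 CPM (edgeR adjusted p = 8.84e-05). Clec4e, which senses mycobacterial glycolipid, was at 202, 189 and 192 CPM against 155, 154 and 148 CPM and was not called. Among 9 sterol efflux genes only Abca1 was called, at 44.5, 34.6 and 37.5 CPM against 29.1, 21.2 and 24.01 CPM (log2 difference 0.65 ± 0.13, edgeR adjusted p = 0.00214), and its difference fell under 1.5-fold without 65–79*PE replicate 5 (0.55) or 65–79*SE replicate 4 (0.54).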
